A study of Caenorhabditis elegans with 3 samples.

Results

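The genes described here are the 6 vitellogenin genes vit-1 to vit-6, which encode the yolk proteins of Caenorhabditis elegans, and rme-2, which encodes the receptor that takes yolk into the oocyte. They are 7 of the 46739 genes in the deposited count table, of which 20362 are protein coding, and they were found by exact gene symbol. RNA came from dissected germlines of wild-type worms of the N2 strain, in 3 libraries that form 1 group with no treatment or second genotype. The labels do not give the age or sex of the animals, nor do they say that each library had its own animals or culture. Differences between the libraries may for that reason be technical. The series set out to find transcription factors expressed in the germline, so it holds no contrast aimed at yolk genes, and the comparisons below are between genes and between single libraries.

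Vitellogenins are large lipid-binding proteins made in the intestine of the adult hermaphrodite, secreted into the body cavity and carried to the gonad. RME-2, a member of the low-density lipoprotein receptor family, sits on the surface of growing oocytes, binds yolk and is drawn in with it through clathrin-coated pits. The products of vit-1 to vit-5 are the larger yolk polypeptides, and the product of vit-6 is cut into a pair of smaller ones. The intestine is thus the known source of vitellogenin transcripts, and the germline is the known source of rme-2 transcripts.

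The libraries held 14523486, 15566299 and 16656171 counts in replicates 1, 2 and 3. At this depth 1 CPM, a count scaled to the total of its library, stood for about 15 reads. A gene with a count of 0 could still have been at up to 0.18 to 0.207 CPM (3 counts). Oocyte markers were abundant. All 13 genes of the oocyte and eggshell list were at 1 CPM or more in each library, as were 40.2% of protein-coding genes. The median of the list was 587.6 CPM, whereas all detected protein-coding genes had a median of 32 CPM. The libraries were unlike in other tissues. The summed CPM of 9 sperm genes was 5862, 659.4 and 1806 in replicates 1, 2 and 3, and that of 10 epidermal and cuticle genes was 1183, 81.5 and 240.7. Replicate 2 was lowest in both and highest in the yolk genes, and the part of these tissues in the results below was not tested. Bulk counts cannot tell fewer cells of a type from less RNA per cell.

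All 7 genes were detected, which here means at least 1 CPM in each library, a level that 40.2% of protein-coding genes reached. The receptor gene was far above the yolk genes in every library. The vitellogenin genes together held 0.0429% of the counts in replicate 1, 0.237% in replicate 2 and 0.0681% in replicate 3, while rme-2 alone held 0.424%, 0.558% and 0.533%.

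The receptor gene rme-2 (WBGene00004374, chromosome IV, 5470026 to 5473174, plus strand, WBcel235) had 4243 CPM in replicate 1, 5578 in replicate 2 and 5327 in replicate 3. Its mean was 5049 ± 710 CPM (SD, n = 3). By library total, replicate 1 was the lowest and the other libraries were close to each other. The log2 ratio of replicate 2 to 3 was 0.07, but 0.21 with edgeR's TMM scaling and 0.18 with DESeq2's size factors. That of replicate 3 to 1 was 0.33, but 0.24 and 0.21 with these scalings. The ratio between the highest and the lowest library was 1.31 by library total. The median ratio over 8194 detected protein-coding genes was 1.30, and 52.7% of them had a smaller ratio than rme-2. Among protein-coding genes, rme-2 ranked 18, 17 and 17 by CPM in replicates 1 to 3. Read counts grow with transcript length, so levels of different genes are compared below as CPM per kb of exon. On that scale rme-2, with 2867 bases of exon, had 1761 ± 247 CPM per kb (SD, n = 3) and ranked 95 of 20116 protein-coding genes with an annotated length.

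The relatives of the receptor in the low-density lipoprotein receptor family fell into abundant and scarce genes. The egg surface genes egg-1 and egg-2, which act in fertilization, had 417.9 ± 43.6 and 201.4 ± 21.5 CPM per kb (SD, n = 3), both below the 1761 CPM per kb of rme-2. For both, the highest library was 1.23 times the lowest, beside 1.31 for rme-2. The larger receptor genes lrp-1 and lrp-2 had 0.257 and 2.08 CPM per kb on average, and lrx-1 was at 0.465 CPM per kb. The gene dsc-4, which encodes the microsomal triglyceride transfer protein homologue and is related to the vitellogenins rather than to the receptor, was scarce. It had 1.1, 5.59 and 1.56 CPM in replicates 1, 2 and 3, highest in replicate 2.

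**Figure D1:**
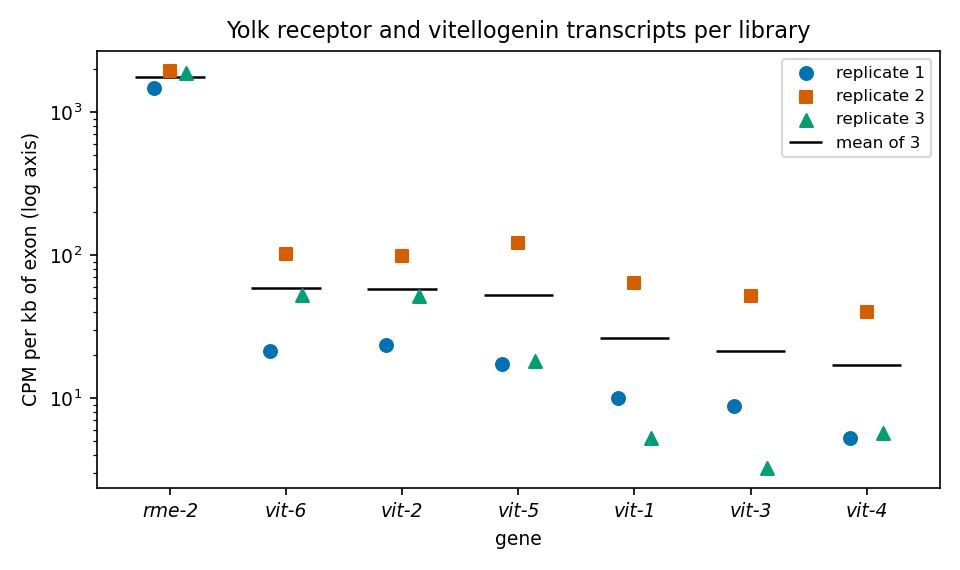
Level of each gene in CPM per kb of exon (log axis) in replicates 1 to 3 (points) with the mean of the 3 libraries (line), ordered by that mean. The receptor gene lies between 1480 and 1946 in all libraries, and each vitellogenin gene has its highest point in replicate 2.

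Among the vitellogenin genes, vit-6 and vit-2 were the most abundant by the mean over libraries. The gene vit-6 (WBGene00006930, chromosome IV, 8261157 to 8266459, plus strand), the only one of the 6 that lies off the X chromosome, had 108.5, 516.8 and 266.7 CPM in replicates 1, 2 and 3. The gene vit-2 (WBGene00006926, X, 5101042 to 5106169, plus strand) had 116.2, 483.6 and 255.5 CPM. In both genes replicate 2 was highest, replicate 3 was intermediate and replicate 1 was lowest.

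The gene vit-5 (WBGene00006929, X, 3403471 to 3408603, plus strand) had 84.2, 590.4 and 88.2 CPM in replicates 1, 2 and 3. The gene vit-4 (WBGene00006928, X, 3558769 to 3563965, minus strand) had 25.8, 198 and 28 CPM. In both, replicates 1 and 3 were nearly level and replicate 2 stood apart. In replicate 2, vit-5 was the most abundant of the 6, above vit-6 and vit-2.

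The gene vit-1 (WBGene00006925, X, 7727889 to 7733168, plus strand) had 51.1, 324.9 and 27 CPM in replicates 1, 2 and 3. The gene vit-3 (WBGene00006927, X, 3567355 to 3572549, minus strand) had 43.4, 254.1 and 16 CPM. In both, replicate 2 was highest and replicate 3 was lowest. The lowest count of any of the 7 genes was 267, for vit-3 in replicate 3, whose exact 95% Poisson interval was 14.2 to 18.1 CPM and covers counting error only. The libraries were amplified and carry no molecular identifiers, so the same limit holds for every counting interval given here.

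Per exon length the order by mean was rme-2, vit-6, vit-2, vit-5, vit-1, vit-3 and vit-4, at 1761, 58.7, 57.8, 52.2, 26.4, 21.2 and 17 CPM per kb. The 6 vitellogenin genes have similar exon lengths, from 4870 to 5088 bases. The step from rme-2 to vit-6 was 5.17 ± 0.93 in log2 CPM per kb (SD, n = 3) and ran the same way in 3 of 3 libraries. The steps from vit-5 to vit-1 (1.16 ± 0.53) and from vit-1 to vit-3 (0.40 ± 0.27) were also larger than their spread, in 3 of 3 libraries. The order was taken from these same 3 libraries, so the direction of the steps was favoured in advance. The neighbours vit-6 and vit-2 (-0.02 ± 0.10), vit-2 and vit-5 (0.55 ± 0.92) and vit-3 and vit-4 (0.10 ± 0.81) did not differ beyond their spread. The mean of the log2 ratios put vit-2 marginally above vit-6, while the mean CPM per kb put vit-6 first. An exact two-sided sign-flip test over 3 libraries cannot go below p = 0.25, the value it gave for each of the 3 larger steps, so none of these orders passed a threshold of 0.05.

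Seen by library, the order changed within the yolk genes and not at the top. The receptor gene came first in each library. In replicate 1 the order then was vit-2, vit-6, vit-5, vit-1, vit-3 and vit-4. In replicate 2 vit-5 moved to the first place among the yolk genes, followed by vit-6 and vit-2. In replicate 3 the last places were taken by vit-4, vit-1 and vit-3. Per exon length, rme-2 was 17.1, 4.08 and 13.6 times the sum of the 6 vitellogenin genes in replicates 1, 2 and 3.

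The libraries differed more in the yolk genes than in most other genes. The summed vitellogenin level was 429.2, 2368 and 681.4 CPM in replicates 1, 2 and 3, a mean of 1159 ± 1054 CPM (SD, n = 3). Without replicate 2 the mean was 555.3 CPM, so that library decided the mean. The means of the single genes also rested on it, and without it they ran from 26.9 CPM for vit-4 to 187.6 CPM for vit-6, with vit-1 at 39.1, vit-3 at 29.7 and vit-5 at 86.2 CPM. Replicate 2 was 5.52 times replicate 1 (95% exact counting interval 5.37 to 5.67) and 3.47 times replicate 3 (3.40 to 3.55), and replicate 3 was 1.59 times replicate 1 (1.54 to 1.64). For rme-2 the same ratios were 1.31, 1.05 and 1.26. These ratios compare single libraries, so they have intervals for counting error and no test.

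Replicate 2 was picked for the rules below after the yolk values had been seen, so the shares are a description and no test. Replicate 2 was at least 2-fold above each other library in 4 of the 6 vitellogenin genes, and 0.94% of detected protein-coding genes met that rule. The 4 were vit-1, vit-3, vit-4 and vit-5, and each of them was also at least 4-fold above each other library, as were 17 of 8194 detected genes (0.207%). Over 9428 protein-coding genes with a mean of at least 1 CPM, a base that does not ask for detection in every library, the share was 0.605%. The other yolk genes, vit-2 and vit-6, were 4.16 and 4.76 times higher in replicate 2 than in replicate 1. They were 1.89 and 1.94 times higher than in replicate 3, just under the 2-fold rule. Both passed it when libraries were scaled by edgeR's TMM or by DESeq2's size factors. These scalings raised the replicate 2 to 3 ratio of every gene alike, by 0.15 and 0.11 in log2. The receptor gene met neither rule.

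The ratio of replicate 3 to replicate 1 placed the yolk genes in 3 pairs, which were formed after these values had been seen. The genes vit-2 and vit-6 were 2.20 and 2.46 times higher in replicate 3 than in replicate 1, a 2-fold rule that 1.99% of detected genes met. The genes vit-4 and vit-5 were level, at 1.09 (0.946 to 1.25) and 1.05 times (0.970 to 1.13), intervals that include 1, and the sign of this small difference flipped with the scaling for both. The genes vit-1 and vit-3 were lower in replicate 3, at 0.529 (0.469 to 0.595) and 0.370 times (0.319 to 0.427) their level in replicate 1.

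**Figure D2:**
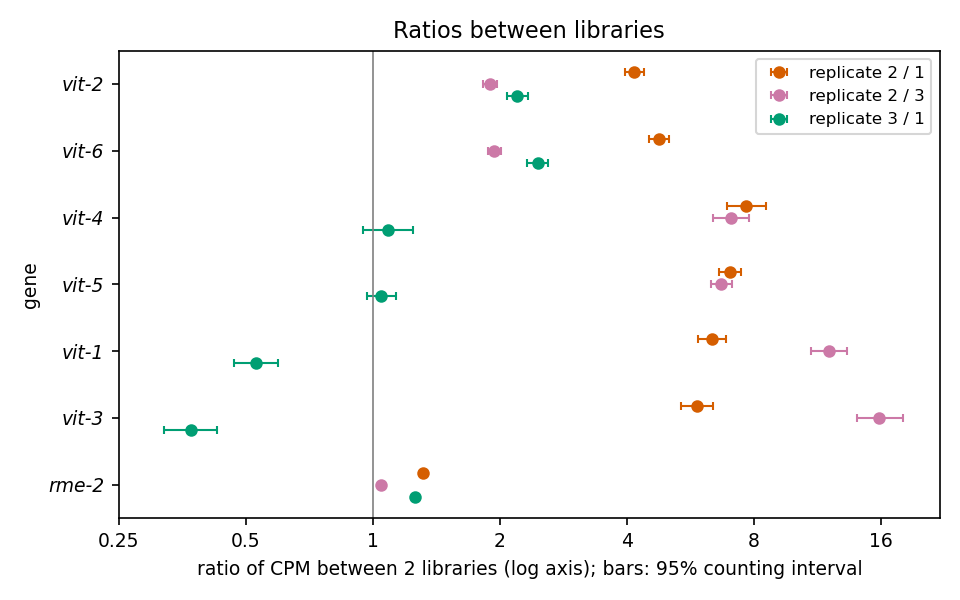
Ratio of CPM between single libraries (log axis) for each gene, with the 95% exact counting interval as a bar. The replicate 2 to 1 ratios of the vitellogenin genes lie between 4.16 and 7.67, while the replicate 3 to 1 ratios run from 0.370 for vit-3 to 2.46 for vit-6.

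The same values can be put as a distance between whole profiles, taken as the root mean square difference of log2(CPM + 1) after each gene was centred on its own mean. The closest pair of the 7 genes was vit-4 and vit-5 (0.04), followed by vit-2 and vit-6 (0.08) and vit-1 and vit-3 (0.21), and the next pair, vit-1 and vit-5, was at 0.42. With 3 libraries these distances are a description and no separate evidence for the pairs. The pairs did not follow position throughout. The closest pair, vit-4 and vit-5, starts at 3558769 and 3403471 on the X chromosome, but vit-3 lies nearer to vit-4. The genes vit-3 and vit-4 lie side by side on the same strand of the X chromosome, 3389 bases apart, at a distance of 0.64, whereas vit-2 on the X chromosome paired with vit-6 on chromosome IV.

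The make-up of the yolk transcripts therefore differed by library. The pair vit-2 and vit-6 made up 52.4% of vitellogenin counts in replicate 1 (95% Wilson interval 51.1 to 53.6), 42.3% in replicate 2 (41.7 to 42.8) and 76.6% in replicate 3 (75.8 to 77.4). The pair vit-1 and vit-3 made up 22%, 24.5% and 6.32%. The pair vit-4 and vit-5 made up 25.6%, 33.3% and 17.1%. Replicate 3 stood apart by its large share of vit-2 and vit-6, and replicate 2 stood apart by the total.

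**Figure D3:**
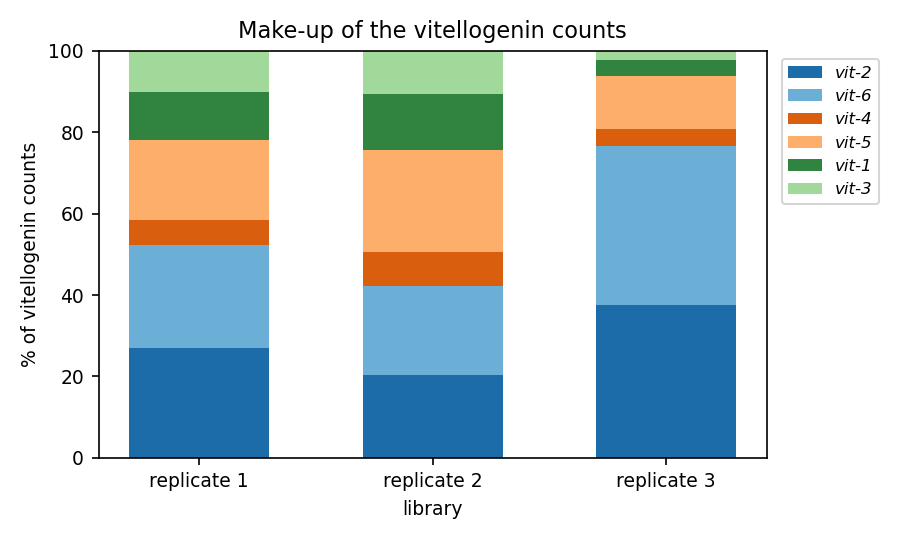
Share of each vitellogenin gene in the vitellogenin counts of each library, as a percentage of 6233, 36858 and 11350 counts in replicates 1, 2 and 3. The blue segments, vit-2 and vit-6, take 76.6% in replicate 3 and 42.3% in replicate 2.

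The vitellogenin genes form a family, and the authors' counting may have dropped or split reads that match more than 1 member. Its setting for such reads is not known here, and how much sequence the 6 genes share was not analysed. The values of single vitellogenin genes are uncertain to that extent. Each of vit-2, vit-3 and vit-4 also overlaps an annotated gene on the other strand, by 11, 171 and 150 bases, and those overlapping genes had no count in any library.

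Of the genes directly beside a yolk gene on the chromosome that had a value, leaving aside vit-3 and vit-4 themselves, only spp-14 was at least 2-fold higher in replicate 2 than in each other library. Next to vit-4, the signalling regulator gene rgs-7 had 48.3, 55.4 and 46.6 CPM in replicates 1, 2 and 3. Next to vit-5, the actin-disassembly gene unc-78 had 17.7, 18.6 and 19.2 CPM. Next to vit-1, the gene set-12 had 2.55, 2.51 and 2.64 CPM on one side, while the saposin-like gene spp-14 on the other had 2.34, 4.82 and 1.38 CPM, highest in replicate 2. The nearest protein-coding neighbours of vit-6 had 0 to 0.62 CPM, and acn-1 beside vit-2 had at most 0.689 CPM. Next to rme-2, T11F8.4 had 13.4, 0.514 and 5.52 CPM, lowest in replicate 2.

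Genes with a profile like that of the receptor were many. Its ratio of 1.31 between the highest and the lowest library was close to the median of 1.30 for detected protein-coding genes. Of 5965 other protein-coding genes with a mean of at least 10 CPM, 869 lay within 0.1 of rme-2 on the log2 scale. The nearest 5 were the Mediator kinase gene cdk-8 (distance 0.0033), C29A12.1 (0.0048), the carbonic anhydrase gene bca-2 (0.0065), the endosomal sorting gene vps-25 (0.0069) and C25G4.3 (0.0075). For instance, cdk-8 had 273.4, 361.1 and 345.3 CPM, at a far lower level than rme-2.

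Genes with a profile like that of the yolk genes were few. The limit of 0.1 was the same for all genes, so a gene that varies much has few others near it. Between 0.952% (vit-3) and 7.98% (vit-2) of detected genes had a larger ratio between highest and lowest library than a vitellogenin gene. The small counts below follow from that spread and are no separate result about yolk genes. Within 0.1 of vit-6, the most abundant vitellogenin gene, were 2 genes, the aspartyl protease gene asp-4 (0.03) and vit-2 (0.08). The next were the lysozyme gene lys-4 (0.25), the cathepsin B-like protease gene cpr-6 (0.31) and T05F1.13 (0.38). The values of asp-4 were 12.3, 63.7 and 30.8 CPM in replicates 1, 2 and 3. Within 0.1 of vit-4 and of vit-5 was only the other of the pair, and no gene was so close to vit-1 or vit-3. The nearest to vit-1 was the lysozyme gene lys-2 (5.16, 30.6 and 2.22 CPM), and the nearest to vit-3 was elo-5, which encodes an elongase of branched-chain fatty acids (22.2, 114.9 and 9.25 CPM). The genes nearest to vit-1 and vit-3 were looked up after the values had been seen.

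The 17 detected genes that were at least 4-fold higher in replicate 2 than in each other library comprised 4 vitellogenin genes and 13 others. The 4 vitellogenin genes held 72.5% of the summed CPM of the 17 in replicate 2, and a similar share, 69.2% and 76.1%, in replicates 1 and 3. After the vitellogenins the highest was elo-5. Others were lys-2, the metallothionein gene mtl-2 (9.78, 40.5 and 6.72 CPM) and the peptide transporter gene pept-1 (1.1, 6.1 and 1.26 CPM). The last 2 were also in the list of 14 intestine genes. The remaining 9 carry sequence names, such as Y119D3B.21 (21.5, 92.8 and 4.86 CPM) and F52E1.14 (5.1, 63.9 and 5.46 CPM).

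The intestine genes did not move as one. Of the 14, 8 were detected, beside 40.2% of protein-coding genes. The median was 2.42 CPM over all 14, and the summed CPM was 112.9, 228.6 and 83.8 in replicates 1, 2 and 3. Replicate 2 was at least 2-fold above each other library in 4, namely cpr-6 (27.4, 137 and 43.5 CPM), mtl-2, pept-1 and the acid phosphatase gene pho-1 (0.689, 1.99 and 0.42 CPM). That rule was met by 0.94% of detected protein-coding genes, a base that leaves out pho-1, which was not detected. The proton pump gene vha-6 had 3.72, 7.07 and 3 CPM, also highest in replicate 2. Other genes of the list were near 0 or were not highest in replicate 2. The gut GATA factor elt-2 had at most 0.18 CPM, with no count in replicate 2, and the gut esterase gene ges-1 had 0.413, 0.321 and 0.3 CPM. The intermediate filament gene ifb-2 (3.3, 0.642 and 2.1 CPM) and the microvillar actin gene act-5 (12.3, 6.75 and 10.8 CPM) were lowest in replicate 2. The protease gene asp-1 had 46.6, 23.1 and 8.89 CPM, and the lowest of the list, the ferritin gene ftn-1, had at most 0.0689 CPM. The part of intestinal RNA in the vitellogenin values was not tested.

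Summed vitellogenin CPM was 3.8, 10.4 and 8.14 times the summed CPM of the 14 intestine genes in replicates 1, 2 and 3. Replicates 2 and 3 were thus closer to each other in this ratio than either was to replicate 1. The intestine sum leaned on few genes, so the ratio depends on which genes are listed. For instance, cpr-6 held 137 of 228.6 CPM in replicate 2, and asp-1 held 46.6 of 112.9 CPM in replicate 1.

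**Figure D4:**
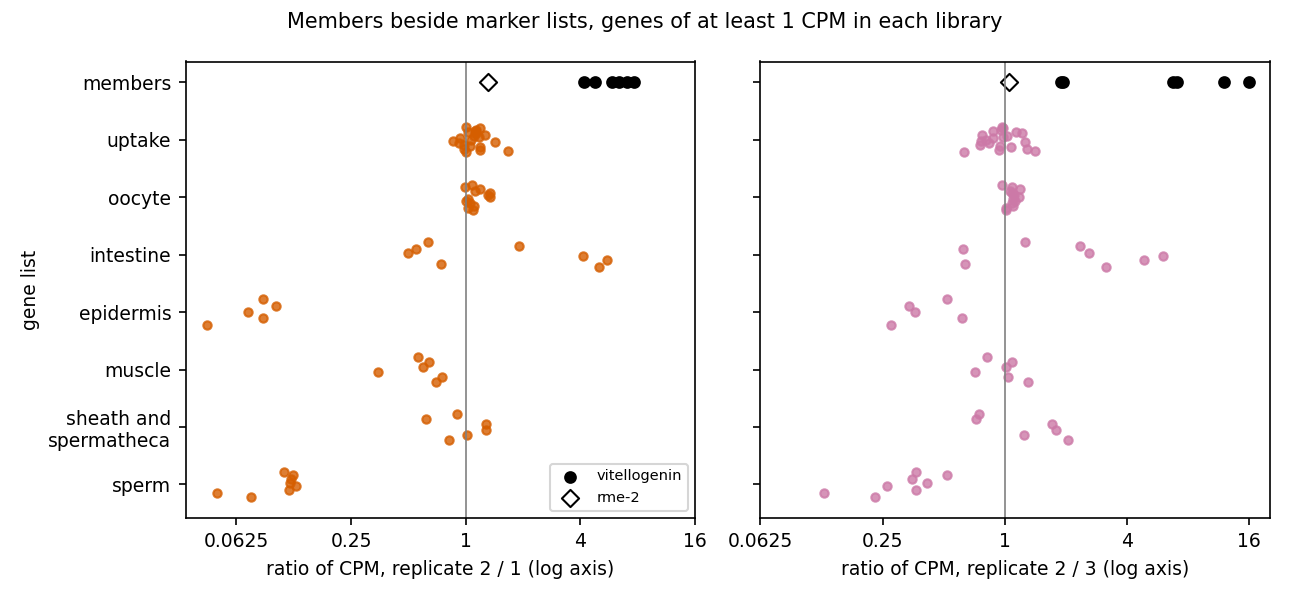
Ratio of CPM in replicate 2 to replicate 1 (left) and to replicate 3 (right), on log axes, for the members and for genes of the marker lists with at least 1 CPM in each library. The vitellogenin genes lie above 1 in both panels, the epidermis and sperm genes lie below 1, and the intestine genes spread to both sides.

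Among other tissues, the epidermis and sperm lists were lowest in replicate 2. The gonadal sheath, coelomocyte and neuron lists had their highest sum there. Of their genes, 3 of 6, 1 of 3 and 3 of 6 were highest in that library, whereas all 6 yolk genes were. Most of the oocyte list shared this, with 11 of 13 genes highest in replicate 2, and so did rme-2. The oocyte sums were 20993, 25959 and 23769 CPM in replicates 1, 2 and 3. None of these 13 genes was 2-fold higher in replicate 2 than in both others. The adult collagen genes col-140 and col-124 led the epidermal list, and col-140 had 423.7, 30.4 and 84.7 CPM in replicates 1, 2 and 3, while the lowest, bli-1 and dpy-7, had 0.0459 CPM on average. The sperm genes were led by msp-31 (2003, 235.3 and 648.2 CPM) and ssq-4 (1177, 140.9 and 340.5 CPM), with spe-9 the lowest at 1.42 CPM on average. The 6 muscle genes summed to 675.2, 444.5 and 426 CPM, with lev-11 and unc-54 the highest, at 187.4 and 142 CPM on average, and unc-27 the lowest at 12.1 CPM. The 6 genes of the gonadal sheath and spermatheca summed to 309, 382.9 and 230.9 CPM. The gap junction genes inx-8 (230.5, 294.6 and 172.4 CPM) and inx-9 (49.99, 63.5 and 35.5 CPM) were the highest and ceh-18 the lowest at 3.52 CPM. Lower in replicate 2 than in replicate 1 were lim-7 (7.23, 6.49 and 8.71 CPM), ceh-18 (4.27, 2.63 and 3.66 CPM) and sth-1 (7.78, 6.36 and 3.12 CPM). The other 3 were highest in replicate 2. The 6 neuronal genes summed to 41.1, 44.5 and 41.4 CPM. Of them, snb-1 and unc-119 were detected, at 35.3 and 4.46 CPM on average, and snt-1 had no count in any library. Coelomocytes, scavenger cells that also take up yolk, were represented by 3 genes, none of which was detected, with sums of 1.03, 1.41 and 0.42 CPM. Of these, cup-4 had 0.0689, 1.28 and 0.06 CPM, unc-122 had 0.689, 0.0642 and 0.36 CPM, and lgc-26, the lowest, had at most 0.275 CPM. The part of these tissues in the vitellogenin values was not tested.

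Genes that act with the receptor in yolk uptake were present throughout. Of 22 genes of clathrin-mediated uptake and recycling, 21 were detected, beside 40.2% of protein-coding genes. The median of the list was 45.7 CPM. The clathrin heavy chain gene chc-1 led with 466.8 ± 31.9 CPM (SD, n = 3), followed by rme-1, whose product recycles receptors to the surface, at 308.9 ± 6.48 CPM. The endosomal J-domain protein gene rme-8 had 161 ± 19.7 CPM. The small GTPase genes rab-5, rab-7, rab-11.1 and rab-35, which mark successive endosomes or act in recycling, had 62.8, 66.7, 93.9 and 34.8 CPM. The lowest was the sorting nexin gene snx-3, at 0.923 CPM. For the 21 detected genes the highest library was 1.04 to 1.66 times the lowest. None was 2-fold higher in replicate 2 than in both others, a rule that only 0.94% of detected protein-coding genes met. Their summed CPM was 1646, 1698 and 1846 in replicates 1, 2 and 3 with snx-3 included.

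The mRNA of rme-2 is known to be held back from translation in early germ cells by the RNA-binding protein GLD-1. The gld-1 gene had 205.5, 167.7 and 186.9 CPM in replicates 1, 2 and 3. All 10 genes of the list of gld-1 and its described targets were detected, beside 40.2% of protein-coding genes, with a median of 140.9 CPM. The chitin-synthesis pathway gene gna-2 and the oocyte maturation gene oma-2 were the highest, at 562.9 ± 108.6 and 477.6 ± 21.4 CPM (SD, n = 3), and the Polycomb-group gene mes-3 was the lowest, at 12.3 CPM. The ratio between highest and lowest library ran from 1.02 to 1.46 in this list, beside 1.31 for rme-2. Among oocyte genes, perm-4 and perm-2, which encode proteins of the outer, vitelline layer of the eggshell, were above rme-2 per exon length, at 7581 ± 1003 and 8085 ± 1172 CPM per kb (SD, n = 3), and mei-1 was the lowest at 72.1 CPM per kb. The other 10 genes of that list were also below rme-2, led by cbd-1 at 875.8 CPM per kb.

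Genes reported to regulate the vitellogenin genes were detected about as often as protein-coding genes in general. Of 11 regulators 4 were detected, beside 40.2% of protein-coding genes, and the median over the list was 0.716 CPM. The median of all protein-coding genes was 0.612 CPM. The 4 were the TORC2 subunit gene rict-1 (98 ± 8.01 CPM), the insulin-pathway factor gene daf-16 (56.9 ± 3.22 CPM), the receptor gene lrp-2 (30.9 ± 6.65 CPM) and the TALE homeobox gene unc-62 (12.8 ± 1.04 CPM, SD, n = 3). The homeobox gene ceh-60, whose product acts with UNC-62 on yolk genes, was the lowest, at 0.0658 CPM. The factors elt-2, pqm-1, lin-29 and mab-3 had means between 0.106 and 0.566 CPM. None of the 11 was 2-fold higher in replicate 2 than in both others, a rule that only 0.94% of detected protein-coding genes met.

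The spread between libraries was also estimated in a model over all genes. In edgeR's model with an intercept only, over 9069 genes that passed its filter, the biological coefficient of variation was 0.229 for rme-2 against a common value of 0.378. It was between 0.513 (vit-2) and 0.914 (vit-3) for the vitellogenin genes. These values are drawn towards the trend of genes of similar level, which was 0.273 to 0.302 for the 7 genes. These positions rested in part on single libraries. Without replicate 3 they held, with the vitellogenin genes between 0.627 (vit-2) and 0.793 (vit-4), rme-2 at 0.328 and the common value at 0.459. Without replicate 1, vit-2 and vit-6 were at 0.326 and 0.333, below the common value of 0.366, as was rme-2 at 0.204, and the other vitellogenin genes lay between 0.676 and 0.866. Without replicate 2 the common value was 0.287, that of rme-2 was 0.218, and the vitellogenin genes lay between 0.168 (vit-5) and 0.428 (vit-3), on both sides of the common value.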

How the data were processed

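Per the labels' protocols, RNA of dissected germlines was isolated with a micro-scale column kit and a SMART-Seq v4 kit was used for library construction. Such kits amplify cDNA from small inputs by PCR. The build WBcel235 and the tools STAR and featureCounts are named, per the submitters' processing notes. Versions, strandedness and the treatment of reads matching more than 1 gene: not given in the sources used here. Deposited values are raw counts per gene, 1 column per library. CPM were computed on each library total. Gene positions and exon lengths came from Ensembl release 115 of WBcel235.

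The members and gene lists were chosen with earlier results of these data known. The 12 lists hold 112 different genes, all found in the table by symbol. The text names the 7 members, the 2 highest and the lowest gene of each list, and the 5 genes nearest in profile to rme-2 and to the most abundant vitellogenin gene. Other genes were named after their values were seen. A gene was detected at 1 CPM or more in each library. Scaling by edgeR 4.0.16 (TMM), DESeq2 1.42.0 and the protein-coding total were alternatives, in R 4.3.3 with Python 3.11.15 and scipy 1.17.1. The edgeR dispersion fit was tested on simulated data. No pair of libraries agreed within sampling noise (chi-square per degree of freedom 65.4 to 119), so none was treated as a repeat deposit of another, which does not show that they are independent samples. The share of sequence unique to each member was not analysed here.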

Additional observations from a re-analysis of the deposited data

How the results depend on the processing

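No paired analysis was possible because all libraries belong to 1 group. The planned comparison of sequence shared between members, with its word lengths, was not run, as no sequence was used here. All 7 genes were detected at minima of 0.5, 5 and 10 CPM, at a count of 10, and in at least 2 of 3 libraries. The share of protein-coding genes that passed these other rules is not given here. The step from rme-2 to vit-6 kept its direction with the longest transcript as length and without each replicate. Scaling moved the median log2 ratio of replicate 2 to 3 by 0.15 (TMM) and 0.11 (DESeq2), and that of replicate 3 to 1 by -0.12 (DESeq2). For the vitellogenin sum the log2 ratio of replicate 2 to 1 was 2.46, and 2.52 with TMM. Replicate 2 to 3 was 1.80, and 1.94 with TMM, 1.91 with DESeq2 and 1.86 with the protein-coding total. Replicate 3 to 1 was 0.67, and 0.58 with TMM and 0.54 with DESeq2. For rme-2, replicate 2 to 1 was 0.39, and 0.45 with TMM and 0.42 with the protein-coding total. Replicate 2 to 3 was 0.07, and 0.21, 0.18 and 0.13 in the same order of the 3 scalings. Replicate 3 to 1 was 0.33, and 0.24, 0.21 and 0.29. Signs changed for vit-4 (replicate 3 to 1, -0.0033 with DESeq2) and vit-5 (-0.0218 with TMM, -0.0554 with DESeq2). Per exon length, the step from vit-6 to vit-2 ran from -0.0556 to 0.0414 and that from vit-3 to vit-4 from -0.22 to 0.56 when each replicate was left out. Replicate 2 was 2-fold above both others in 6 vitellogenin genes with TMM or DESeq2 and in 5 with the protein-coding total. It was 4-fold above in 4 under each, an alternative chosen after seeing the data. The share of all detected genes that met these rules under the other scalings is not given here, so the counts cannot be read against it. With a pseudocount of 0.5, 3 of the 5 genes nearest to rme-2 were kept, and at a minimum of 1 CPM, 3 of those nearest to vit-6. The cause of these shifts was not tested. Without each replicate the mean vitellogenin sum ran from 555.3 to 1525 CPM. Depth limits genes under about 1 CPM, where 15 counts or fewer stand behind a value.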
